A study of Mus musculus with 6 samples.

Results

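The ErbB receptors and their EGF-like ligands were followed in neonatal prostate cells. They comprise 10 genes, the receptors Egfr, Erbb2, Erbb3 and Erbb4 and the ligands Areg, Ereg, Btc, Hbegf, Tgfa and Egf. The array carries 36282 distinct names, each counted as a gene here, with names that are chromosome positions included. The members were taken by gene name, and 13 of the 55681 probes carry one of these names. The cells came from prostates of 6-day-old male FVB/N mice with the Tg 11.5kb-GFP transgene, in which the s-SHIP promoter drives GFP, and the animals received no treatment. Dissociated cells negative for the lineage markers Ter119, CD31 and CD45 and positive for Sca-1 and CD49f (LSC) were sorted into LSC GFP+ and LSC GFP- cells, so both populations carried the transgene. GFP also marks vascular smooth muscle cells in these mice, which the paper reports to carry little or no Sca-1 and CD49f. Whether animals were pooled for a sample is not stated in the sources used here. RNA from 3 independent samples of each population was amplified, labelled with Cy3 and hybridised to 1 array each.

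ErbB receptors are membrane tyrosine kinases that act as dimers. A ligand binds the outer part of Egfr, Erbb3 or Erbb4, whereas Erbb2 has no known ligand and serves as a preferred dimer partner. EGF-like ligands are made as membrane proteins and released by proteases, and bound receptors signal through adaptors to the RAS and ERK kinase cascade, which in prostate and other epithelia is known for driving growth.

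The probes behind the receptor results are shown because they read different stretches of the transcripts. Each is given 5′ to 3′ in the sense of the transcript, with mm9 positions from the array design. The first probe of Egfr was placed by the design on the transcript NM_007912, variant 2 of the gene, and lies at chr11:16783556-16783615 on the plus strand. The second lies further along the same transcript, at chr11:16787172-16787231. The probe of Erbb3 lies at chr10:128006424-128006483 on the minus strand.
Egfr, probe A_55_P1956863: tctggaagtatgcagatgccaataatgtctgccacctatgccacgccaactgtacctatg
Egfr, probe A_55_P1956862: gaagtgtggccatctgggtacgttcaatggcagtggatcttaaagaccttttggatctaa
Erbb3, probe A_55_P2119897: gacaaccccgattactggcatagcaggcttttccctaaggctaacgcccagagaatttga

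Signals are given as log2 values relative to the 75th percentile of the same array, so a value of 0 equals that percentile. Hybridisation differs from probe to probe, and levels are compared only between arrays at the same probe. A probe entered the test when either population had all 3 of its arrays marked well above background by the scanner software. This held for 7 probes of 6 members, and each of these probes was well above background on all 6 arrays. Between 36651 and 42123 probes were well above background per array, and no spot was saturated. In sorted samples measured in bulk, fewer cells of a type and less RNA per cell cannot be told apart.

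Hbegf and Egfr were higher in LSC GFP+ cells, by 1.81-fold and 1.69-fold. For Erbb2, Erbb3, Tgfa and Egf no difference was called, and Erbb4, Areg, Ereg and Btc were too dim to pass the filter. At each gene's brightest probe, 2 of the 6 members tested were higher at an unadjusted p under 0.05, the threshold the study states, against 3.38% of the 25608 genes tested, and none was lower, against 4.29%. The populations did not overlap at the same 2 members, against 11.9% of all genes. The median log2 difference over the 6 members was -0.08, with a range from -0.31 to 0.86, and that over all genes was -0.01. After Benjamini-Hochberg adjustment over all probes in limma, 0 members were called. That stands beside 0 of all 25608 genes at their brightest probe and 1 of all 36990 probes. The methods' t-test also called 0 members after adjustment, beside 0 of all 36990 probes. In an exact permutation test 3 arrays against 3 cannot give a p under 0.1.

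**Figure D1:**
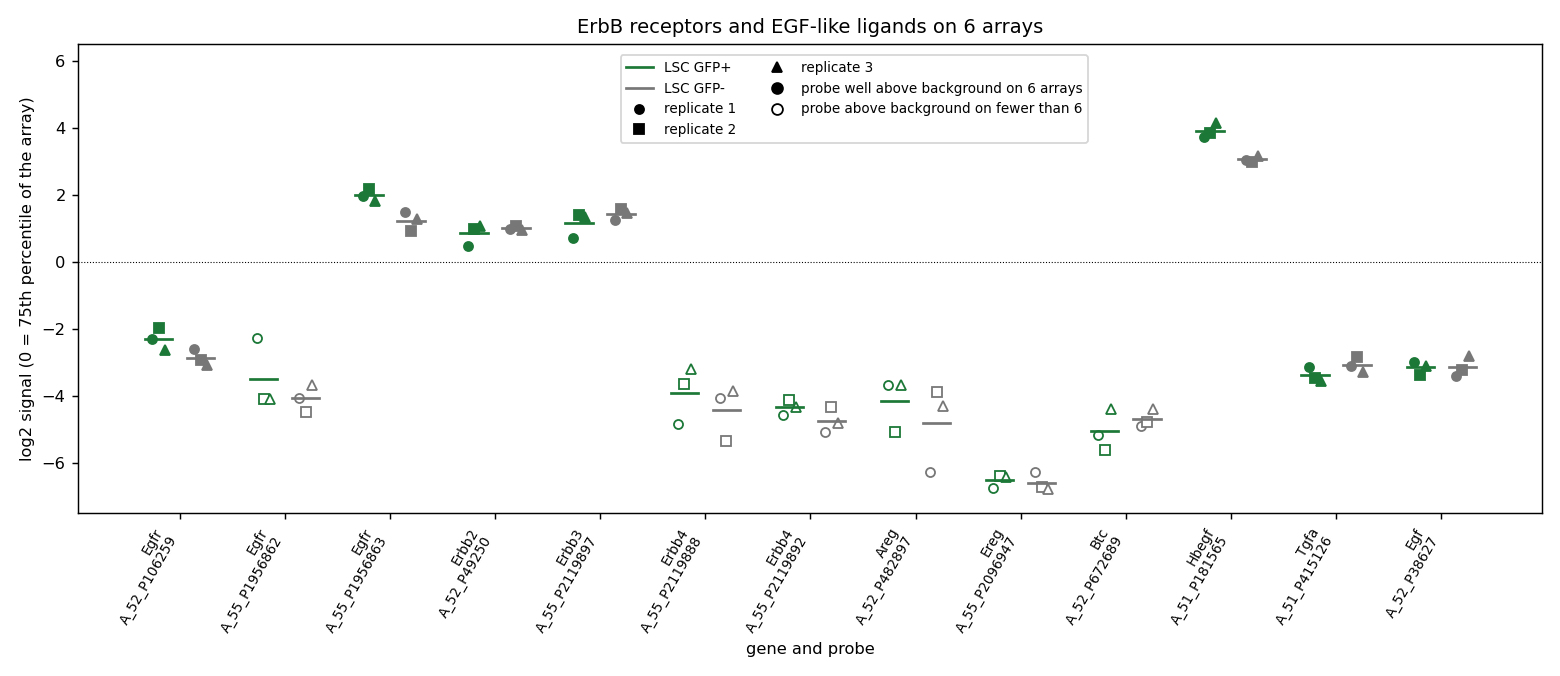
Log2 signal of every probe of the 10 members on each array, relative to the array's 75th percentile (y axis), by gene and probe (x axis). Green marks LSC GFP+ and grey LSC GFP- arrays, symbols give the replicate, lines are means of 3 arrays, and open symbols mark probes above background on fewer than 6 arrays. The LSC GFP+ values lie above all LSC GFP- values at Hbegf and at the Egfr probe A_55_P1956863.

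Egfr is a receptor for all of the ligands among the members. At its brightest probe, A_55_P1956863, the log2 signals were 1.97, 2.17 and 1.80 in LSC GFP+ replicates 1, 2 and 3 and 1.49, 0.92 and 1.27 in LSC GFP- replicates 1, 2 and 3. All 3 LSC GFP+ values lay above the LSC GFP- values, with a gap of 0.31 between the groups, and LSC GFP- replicate 2 was the lowest. The means were 1.98 ± 0.19 and 1.23 ± 0.29 (SD, n = 3 each), and the difference was 0.76 ± 0.22 (SE) on the log2 scale. This is a 1.69-fold higher signal, with a 95% interval from 1.18-fold to 2.42-fold and an adjusted p of 0.343 in limma. Within replicate numbers the log2 difference was 0.48, 1.25 and 0.53.

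The other Egfr probes gave less. A_52_P106259, printed 10 times on each array, was placed on the long transcript NM_207655, variant 1, at chr11:16813815-16813874. Its log2 signals were -2.31, -1.96 and -2.63 in LSC GFP+ cells and -2.59, -2.93 and -3.07 in LSC GFP- cells, so that the populations overlapped by 0.04. The log2 difference was 0.56 ± 0.24 (SE), with the same sign in all 3 replicate numbers, but it missed the unadjusted threshold, with an adjusted p of 0.635 in limma and a 95% interval from -0.0022 to 1.13. It passed the unadjusted threshold in 6 of 16 alternative settings, the replicate block among them. Over these settings the log2 difference ranged from 0.25, with normexp background correction, to 0.73.

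The second probe on variant 2 of Egfr, A_55_P1956862, was well above background on 1 array of each population and was not tested. Its log2 signals were -2.28, -4.09 and -4.10 in LSC GFP+ cells and -4.06, -4.48 and -3.67 in LSC GFP- cells. A single array, LSC GFP+ replicate 1, stood above the others. Variant 2 is known to code for a secreted form of the receptor without the kinase. The files used here do not state which other transcripts hold the stretch read by the bright probe.

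Erbb2 and Erbb3 form dimers with the other receptors of the family. The Erbb2 probe A_52_P49250, at chr11:98298103-98298162, gave log2 signals of 0.48, 0.99 and 1.08 in LSC GFP+ cells and 0.98, 1.08 and 0.94 in LSC GFP- cells. The populations overlapped, and LSC GFP+ replicate 1 was the lowest of the 6 arrays. The log2 difference was -0.15 ± 0.22 (SE), with a 95% interval from -0.66 to 0.36 (limma, adjusted p = 0.996). Without LSC GFP+ replicate 1 it was 0.03.

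Erbb3, whose own kinase is weak, gave 0.72, 1.41 and 1.33 in LSC GFP+ cells and 1.24, 1.57 and 1.45 in LSC GFP- cells on the same log2 scale. LSC GFP+ replicate 1 was again the lowest array, and the ranges overlapped. The log2 difference was -0.27 ± 0.24 (SE), negative within all 3 replicate numbers, with a 95% interval from -0.83 to 0.29 (limma, adjusted p = 0.982). Without LSC GFP+ replicate 1 it was -0.051. The intervals of Erbb2 and Erbb3 leave room for a change in either direction.

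Erbb4, a receptor for neuregulins and for several EGF-like ligands, stayed near background. Its probe A_55_P2119888 was well above background on 2 LSC GFP+ arrays and 1 LSC GFP- array, with log2 signals of -4.86, -3.66 and -3.21 against -4.08, -5.36 and -3.85. The other probe, A_55_P2119892, was well above background on 1 of the 6 arrays. The values of both probes overlapped between the populations.

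Hbegf, a membrane-anchored ligand that binds Egfr and Erbb4 and also heparan sulfate, had the largest difference of the members tested. Its log2 signals were 3.72, 3.86 and 4.16 in LSC GFP+ replicates 1, 2 and 3 and 3.03, 2.99 and 3.14 in LSC GFP- replicates 1, 2 and 3. The populations were parted by 0.58, more than the whole range within either of them. The means were 3.91 ± 0.22 and 3.05 ± 0.08 (SD, n = 3 each), and the log2 difference was 0.86 ± 0.20 (SE). The signal was 1.81-fold higher, with a 95% interval from 1.32-fold to 2.49-fold and an adjusted p of 0.205 in limma. Of all genes tested, 1.37% had a smaller p and 1.36% a larger difference. The gene has a single probe, A_51_P181565, with 1 spot on each array.

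Tgfa and Egf bind Egfr only. Tgfa gave log2 signals of -3.14, -3.46 and -3.55 in LSC GFP+ cells and -3.11, -2.84 and -3.29 in LSC GFP- cells. The lowest array was an LSC GFP+ array and the highest an LSC GFP- array, but the ranges overlapped, and the log2 difference of -0.31 ± 0.22 (SE) had a 95% interval from -0.81 to 0.20 (limma, adjusted p = 0.906).

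Egf gave -2.99, -3.37 and -3.10 against -3.42, -3.23 and -2.81 on the same scale. The ranges overlapped almost fully, and the log2 difference was -0.01 ± 0.23 (SE), with a 95% interval from -0.54 to 0.53 (limma, adjusted p = 0.999). Both ligands were read by probes printed 10 times on each array.

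**Figure D2:**
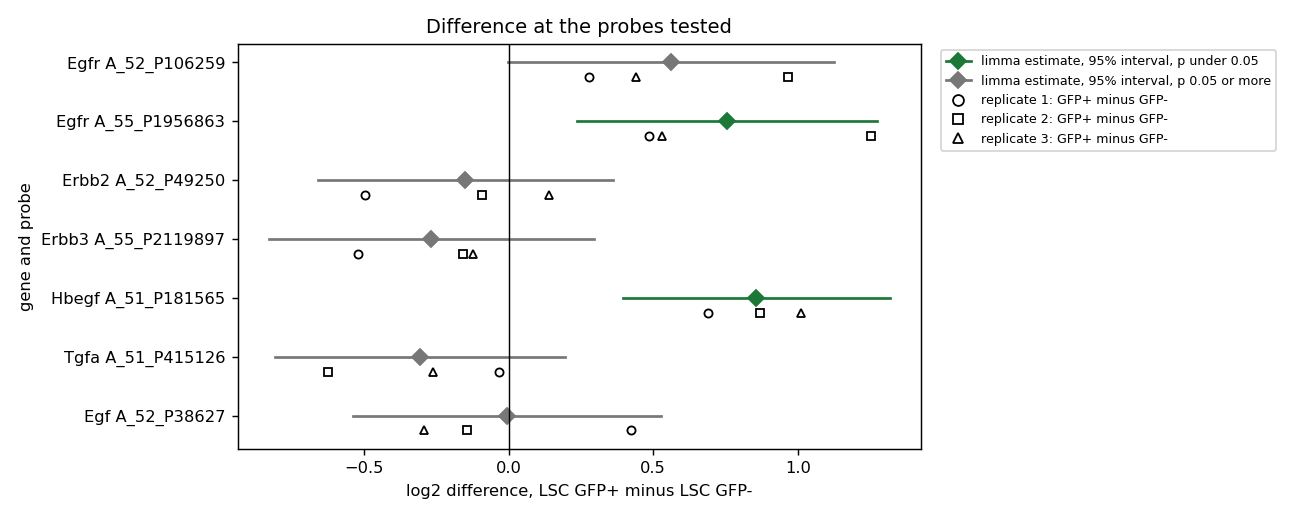
Log2 difference between LSC GFP+ and LSC GFP- cells (x axis) at the 7 member probes tested (y axis). Diamonds and lines give the limma estimate with its 95% interval, green at an unadjusted p under 0.05, and open symbols give the difference within each replicate number. The intervals of Hbegf and of the Egfr probe A_55_P1956863 lie above 0, and the other 5 include 0.

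Areg, Ereg and Btc were too dim for the filter. Areg, a ligand of Egfr, was well above background on 2 arrays of each population, with log2 signals of -3.67, -5.09 and -3.69 in LSC GFP+ cells and -6.26, -3.90 and -4.30 in LSC GFP- cells. Its arrays spread widely, and the difference within replicate numbers had both signs. Ereg, which binds Egfr and Erbb4, was not well above background on any of the 6 arrays. Btc, which binds the same receptors, was not well above background on any LSC GFP+ array and was so on 1 LSC GFP- array. Without any filter on dim probes the log2 differences were 0.67 for Areg, 0.066 for Ereg, -0.36 for Btc and 0.52 for Erbb4, and none passed the unadjusted threshold.

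The genes whose arrays varied most like those of Hbegf were found by the root mean square distance over the 6 arrays, after each gene was centred on its own mean, among 23776 genes well above background on all arrays. The nearest were Peli2, an E3 ubiquitin ligase, with a log2 distance of 0.084, and Krt13, a keratin of stratified epithelia, with 0.085. They were followed by Fermt1, which codes for an integrin-binding adaptor, at 0.088, the scaffold gene Cask at 0.095, and Nampt, an enzyme of NAD salvage, at 0.099. Their log2 differences between the populations lay between 0.71 and 0.86, near that of Hbegf by the way they were found.

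Around the members, 58 genes in 6 lists were examined at their brightest probe, and 56 of them were tested. Of these, LSC GFP+ cells had 12 higher and 2 lower genes by the unadjusted threshold, beside 3.38% and 4.29% of all genes. After adjustment by limma 0 passed, beside 0 of all genes, and the median log2 difference was 0.15. Most of the higher genes, 9 of 12 with Fosl1 included, belonged to a single list, that of ERK response and feedback genes.

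**Figure D3:**
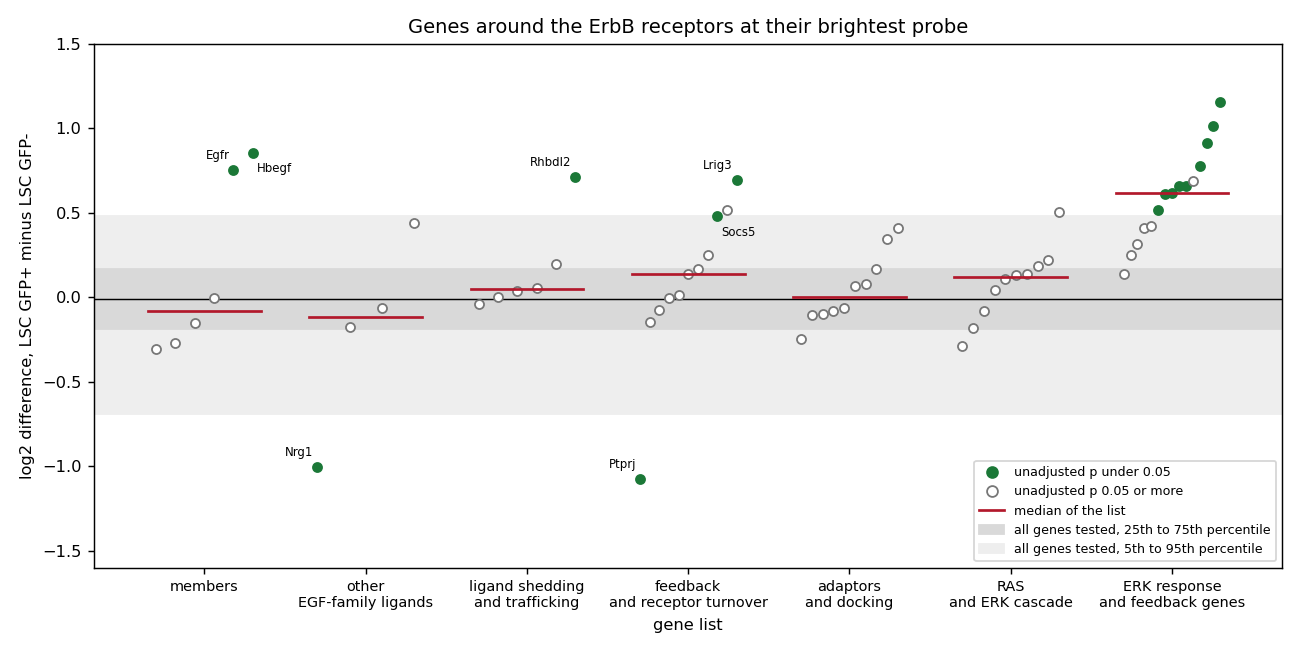
Log2 difference between LSC GFP+ and LSC GFP- cells (y axis) for the members and 6 lists of pathway genes (x axis), each gene at its brightest probe. Filled points have an unadjusted p under 0.05, red lines are list medians, the black line is the median of all genes tested, and grey bands hold the 25th to 75th and the 5th to 95th percentile of those genes. The 15 ERK response and feedback genes have a median of 0.62, and 3 of them, Dusp4, Dusp5 and Fosl1, were well above background on fewer than 3 LSC GFP- arrays.

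Of the 5 other ligands of the EGF family, 4 were tested and Nrg1 was lower in LSC GFP+ cells. Nrg1, a neuregulin that binds Erbb3 and Erbb4, gave log2 signals of -3.73, -3.57 and -3.96 in LSC GFP+ cells and -2.82, -2.50 and -2.94 in LSC GFP- cells. Every LSC GFP+ array lay below every LSC GFP- array. The log2 difference was -1.0 ± 0.21 (SE), a signal of 0.499 times that of LSC GFP- cells (limma, adjusted p = 0.17). With normexp background correction the log2 difference was -0.48 and still passed the unadjusted threshold. Epgn, Nrg2 and Nrg4 missed the threshold with log2 differences from -0.17 to 0.44, and Nrg3 stayed below the background mark throughout.

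Among 6 genes of ligand release, Rhbdl2, a rhomboid protease of the membrane, was higher. Its log2 signals were 0.72, 0.91 and 0.72 in LSC GFP+ cells and -0.21, 0.13 and 0.28 in LSC GFP- cells, without overlap. The log2 difference was 0.72 ± 0.21 (SE), with an adjusted p of 0.328 in limma. The main sheddases Adam10 and Adam17 had log2 differences of 0.00 ± 0.20 and 0.06 ± 0.28 (SE), and neither passed the threshold.

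Of 11 genes that restrain or turn over the receptors, 2 were higher and 1 was lower. Ptprj, a receptor-type tyrosine phosphatase, gave log2 signals of 0.93, 1.47 and 1.33 in LSC GFP+ cells and 2.24, 2.46 and 2.26 in LSC GFP- cells. The populations did not overlap, and the log2 difference was -1.08 ± 0.21 (SE) (limma, adjusted p = 0.145), with the other probes of the gene between -0.97 and -0.84. Lrig3, a relative of the ErbB inhibitor Lrig1, was higher by 0.70 ± 0.28 (SE) on the log2 scale (limma, adjusted p = 0.579). Socs5, of a family that targets receptors for degradation, was higher by 0.48 ± 0.19 (limma, adjusted p = 0.568). Errfi1, a direct inhibitor of ErbB kinases, missed the threshold, with a log2 difference of 0.52 ± 0.23 (limma, adjusted p = 0.654). Of the 11 genes, 4 did not overlap between the populations, Errfi1 and Cbl among them, beside 11.9% of all genes. The calls of Lrig3 and Socs5 were lost in 7 and 8 of 17 alternative settings, and the log2 difference of Socs5 was 0.080 with normexp background correction. The ubiquitin ligase gene Cbl and the inhibitor gene Lrig1 had log2 differences of 0.25 and -0.00, which also missed it. A second Lrig1 probe gave 0.58.

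None of the 10 adaptor genes and none of the 10 genes of the RAS and ERK cascade passed the threshold, and the median log2 differences of the lists were 0.00 and 0.12. At the brightest probes, the widest differences were 0.41 ± 0.19 (SE) for Grb2, the adaptor that links receptors to RAS (limma, adjusted p = 0.684), and 0.50 ± 0.30 for Hras (limma, adjusted p = 0.832). A second Grb2 probe gave -0.08. Araf had a log2 difference of -0.29 ± 0.18 (SE) (limma, adjusted p = 0.838), and its other probes gave -0.60 and -0.43. The methods' t-test called 1 adaptor gene higher, 1 adaptor gene lower and 1 cascade gene lower. Both Grb2 and Hras passed the unadjusted threshold with the replicate block, as did Errfi1 of the preceding list, with adjusted p of 0.288, 0.241 and 0.323 in limma.

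Of the 16 ERK response and feedback genes, 12 were well above background on all 6 arrays, and with that filter 8 were higher in LSC GFP+ cells, 0 lower and the median log2 difference was 0.62. Dusp4, Dusp5 and Fosl1 entered the test only through the LSC GFP+ arrays, and with them 9 of 15 were higher. The log2 differences ran from 0.14 to 1.16, but with normexp background correction 14 of the 15 were positive and the median was 0.45, and without LSC GFP- replicate 1 or LSC GFP+ replicate 3, 13 and 14 were positive. With the replicate block 12 of the 15 were higher, Dusp4, Spred1 and Spry1 in addition. Over all 25608 genes, the block raised the number higher from 865 to 1667. Dusp6, a phosphatase that removes phosphate from ERK, gave log2 signals of 3.57, 3.61 and 3.39 in LSC GFP+ cells and 2.55, 2.37 and 2.62 in LSC GFP- cells. Its log2 difference was 1.01 ± 0.19 (SE), a 2.02-fold higher signal (limma, adjusted p = 0.129). Ier3, an immediate-early gene, gave 1.36, 1.85 and 2.01 against 0.66, 0.31 and 0.77 on the same scale. The values of Ier3 did not overlap either, and its signal was 2.23-fold higher (limma, adjusted p = 0.166).

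The other 7 ERK response genes called rose by 0.52 to 0.92 on the log2 scale, with adjusted p from 0.163 to 0.619 in limma. Spry2, an inhibitor of receptor signalling, had a log2 difference of 0.52 ± 0.22 (SE), and Phlda1, a feedback gene, 0.62 ± 0.19. The transcription factor genes Egr1, Fosl1 and Etv4 had 0.66 ± 0.24, 0.66 ± 0.24 and 0.61 ± 0.21. The growth genes Myc and Ccnd1, which are known targets of several pathways, had 0.92 ± 0.19 and 0.78 ± 0.20. Fosl1 was well above background on 2 of the 3 LSC GFP- arrays. The call of Spry2 was lost in 8 of 17 alternative settings, that of Fosl1 in 6 of 16, with a log2 difference of 0.16 under normexp, those of Egr1 and Etv4 in 3 and that of Phlda1 in 1. These genes respond to many receptors besides the ErbB family.

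**Figure D4:**
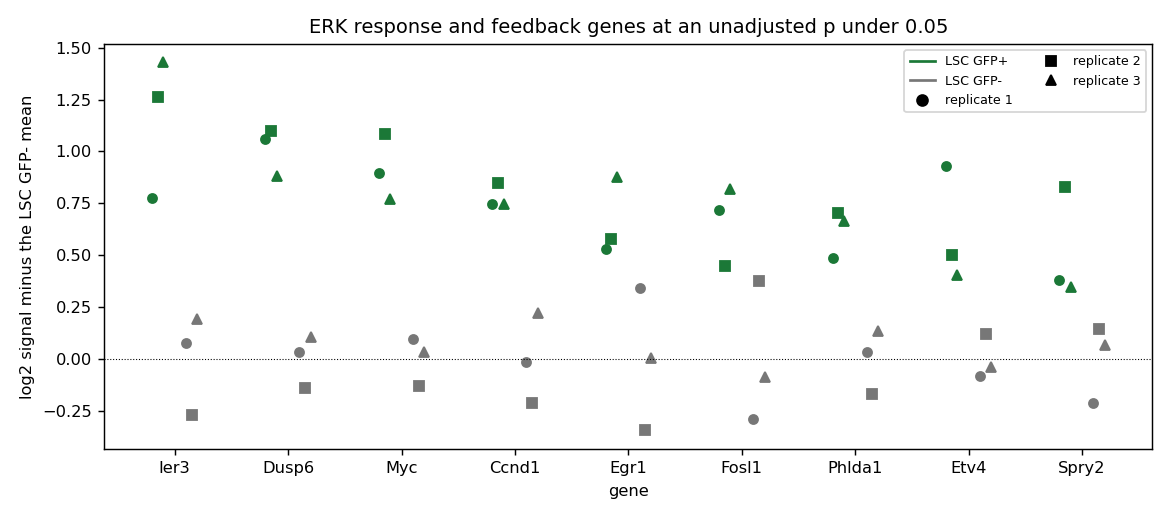
Log2 signal minus the LSC GFP- mean of each gene (y axis) for the 9 ERK response and feedback genes higher in LSC GFP+ cells (x axis). Green points are LSC GFP+ arrays, grey points LSC GFP- arrays, and symbols give the replicate. In each of the 9 genes the 3 LSC GFP+ arrays lie above the 3 LSC GFP- arrays. The genes were picked by their p on these same arrays, so the separation follows largely from that choice. Of all 15 tested genes of the list, 10 did not overlap, Fosl1 among them, beside 11.9% of all genes tested. Dusp4, Dusp5 and Fosl1 entered the test only through the LSC GFP+ arrays.

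Markers of several cell types moved with the populations. The summed signal of 8 basal markers, in multiples of the array's 75th percentile, was 214 to 233 in LSC GFP+ and 158 to 171 in LSC GFP- cells, and 5 of the 8 were higher, Krt5 and Krt14 among them. All 8 basal markers were well above background on every array. The summed signal of 6 smooth muscle markers was 6.21 to 10.0 against 19.6 to 37.7, with all 6 lower, and that of 7 stromal markers 18.6 to 24.9 against 20.9 to 58.9, with 5 lower and Dcn higher. The summed signal of 6 luminal markers ranged from 104 to 151 against 109 to 155. Acta2, a defining smooth muscle gene, remained well above background in both populations. None of the tested markers of endothelium, leukocytes, glia and neurons or erythroid cells was called (4, 5, 4 and 2 tested), and their summed signals overlapped between the populations. Of 3 seminal vesicle markers tested, Svs5 was lower, and the summed signal of that list was 1.08 to 4.85 against 3.72 to 9.46. Svs5 and Pdgfra, the latter among the lower stromal markers, were each well above background on 2 LSC GFP+ arrays. Both entered the test only through the 3 LSC GFP- arrays. The part of these cell types in the differences of Hbegf, Egfr, Nrg1, Ptprj and the ERK response genes was not tested.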

How the data were processed

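Gene expression was measured on 6 SurePrint G3 Mouse arrays of a single colour, with 3 independent samples each of LSC GFP+ and LSC GFP- cells, grouped by the sample labels. RNA was amplified by the Ovation Pico kit before labelling. Per the file headers, the authors' deposited intensity values are linear processed signals of Feature Extraction 11.0.1.1, with background subtracted and a spatial trend removed, and were not normalized between arrays. The submitters' processing notes name version 10.7.3.1. All arrays lie on 1 slide and were scanned in 1 run. Dim spots carry a substitute value, so values below background have no reliable order.

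Each signal was log2-transformed and expressed relative to the array's 75th percentile. Outlier spots (123 to 154 per array) were left out, and spots of a probe were averaged. A further 15 probes, with every spot on an array marked as an outlier, were not tested. The populations were compared over 36990 probes in R 4.3.3 with limma 3.58.1 (lmFit, eBayes, two-sided), with Benjamini-Hochberg adjustment. Because the methods of the study give a p threshold without correction, calls at the unadjusted threshold of 0.05 are given beside adjusted values. A gene was read at its probe with the highest mean among those tested. The scripts were tested on simulated data. The number of arrays limits the precision.

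The members, the 6 pathway lists and the 9 marker lists were chosen with earlier results of these data known. The text names every member at every probe, every pathway gene called, up to 4 of the first markers per list, and the 5 genes nearest to the member with the largest difference. Pathway genes named without a call were picked after their values were seen. Symbols were matched through RefSeq accessions of the assembly GRCm38.p6 for 26582 probes, used for names only, and others kept the name of the array design.

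To check whether equal replicate numbers mark paired samples, each array's deviations from its population mean were correlated over probes between the populations. The correlations were 0.43, 0.28 and 0.67, above 0.1 in every pair, so the numbers in the labels were taken to pair the samples. The labels do not say what the numbers share. The pairing was used only for the replicate block and the differences within replicate numbers. All other p-values, standard errors and intervals come from a fit without pairing. A value of 0.22 was also found for LSC GFP+ replicate 1 against LSC GFP- replicate 2, while the remaining combinations were negative. The alternatives changed the background correction (normexp, offset 50), the scaling (quantile, array median), the source (rounded series table), the filter on dim probes (3 others), the test (the methods' t-test, limma with a trend, a replicate block) or the summary of a gene's probes (their mean), or left out each array in turn. Some items are not reported here.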

Additional observations from a re-analysis of the deposited data

How the results depend on the processing

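Hbegf and Egfr kept their direction and stayed under the unadjusted threshold in all 17 alternatives, with log2 differences of 0.74 to 0.95 and 0.60 to 0.89. With the replicate number as a block, 2 members were higher and 0 lower as before, and the share of all genes called rose from 7.67% to 14.2%. The block, which uses the pairing of the samples, put the Egfr probe of variant 1 past the threshold and left every other member on its side of it. It raised the pathway genes called higher from 12 to 18, adding Dusp4, Spred1, Spry1, Errfi1, Grb2 and Hras. Leaving out 1 array at a time gave 2 to 4 members without overlap and a median over the members of -0.14 to 0.10, over sets of members that differ. The 4 without LSC GFP+ replicate 1 include Erbb4, which then entered through its LSC GFP+ arrays, and stand beside 28.1% of all genes. Of the 6 members tested with all arrays, 3 did not overlap there. The median of 0.10 without LSC GFP+ replicate 2 includes Areg, which entered in the same way. The log2 difference of Egf turned to 0.072 with quantile normalization and 0.063 with median scaling, and ranged from -0.14 to 0.17 with 1 array left out, above 0 without LSC GFP- replicate 3 or LSC GFP+ replicate 2. That of Erbb2 ranged from -0.26 to 0.033, above 0 without LSC GFP+ replicate 1. The methods' t-test called 4 pathway genes lower in place of 2. Over all genes, 865 were higher and 1098 lower, with median scaling 982 and 837, and with the methods' t-test 1113 and 808. The cause of these shifts was not tested. Of the ERK response genes, 6 to 12 were called higher and 0 lower in every alternative, with 6 when LSC GFP- replicate 1 or LSC GFP+ replicate 3 was left out, where 13 and 14 of the 15 had a positive difference. Lrig3, Socs5, Spry2 and Fosl1 lost their call in 6 to 8 alternatives each, Etv4 and Egr1 in 3 and Phlda1 in 1. A slide block was not run, since all arrays share a slide. Signal over background limits Erbb4, Areg, Ereg and Btc.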
